A study of Homo sapiens with 18 samples.

Results

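The CDK inhibitor genes of the CIP/KIP family (CDKN1A, CDKN1B and CDKN1C) and of the INK4 family (CDKN2A, CDKN2B, CDKN2C and CDKN2D), together with CDKN3, were followed across the 6 treatment groups of an RNA-seq study of SJSA-1 cells. The 8 genes were chosen by their symbols among the 23368 gene rows of the deposited tables, and all 8 passed the filter on low counts in every comparison. SJSA-1 is a human osteosarcoma cell line with amplified MDM2 and CDK4, and all values come from this 1 line. Nutlin is an MDM2 antagonist that releases p53, and PD0332991 (Palbociclib) is an inhibitor of CDK4 and CDK6. Each group held 3 replicates, and the control cells received DMSO, the solvent. The Nutlin group received 20 µM Nutlin for 6 h. The PD24 group received 10 µM PD0332991 that was taken away after 24 h of a schedule of 30 h, and the PD30 group received it for 30 h. The N+PD24 and N+PD30 groups received Nutlin for the last 6 h of either schedule. The study asked whether CDK4 inhibition alters the p53 response and whether withdrawal of the inhibitor restores it. The study calls its replicates biological triplicates, but the labels do not say that they came from separate cultures, so p-values measure the spread between these libraries.

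CIP/KIP proteins bind CDKs together with their cyclins and mainly restrain CDK2 complexes, while they also help to assemble CDK4 and CDK6 with D-type cyclins. INK4 proteins bind CDK4 and CDK6 alone and keep them from their cyclins. CDKN1A encodes p21, the classical p53 target that carries out much of the p53-dependent cell cycle arrest. CDKN3 encodes a phosphatase (KAP) that removes an activating phosphate from CDK2 and CDK1, and it is itself transcribed in proliferating cells.

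The start sites of all 8 genes were searched for motifs, since p53 acts through response elements and many cell cycle genes carry a cell cycle homology region (CHR). Short stretches are shown for the members with a match. Sequences were read from GRCh37, which has the coordinates of the authors' build hg19, and positions count from 0 at the first base of the MANE Select transcript. Between -2500 and -1, a p53 response element was looked for by its consensus, as adjoining half-sites with no spacer, intact cores and at most 2 mismatches. Of the 8 genes, 1 held a match, CDKN1A, at positions -2265 to -2246 (chr6:36644226-36644245, plus strand), and 1.27% of 18922 such windows of all genes held one. The match begins upstream of the annotated CDKN1A gene (chromosome 6, 36644237 to 36655114) and runs into the first bases of its longest annotation. In the windows from 250 bases before to 50 bases after the start site, the CHR letters TTTGAA or TTCGAA on either strand were present in 1 of the 8 genes, CDKN3, and in 12.6% of all windows. The match lies at positions -170 to -165, outside the annotated gene (chromosome 14, 54863567 to 54886936), and reads TTTGAA on the minus strand. The E2F letters TTTCCCGC, TTTGGCGC or TTTCGCGC were present in 3.71% of all windows and in none of the 8 (0 of 8), which says only that these letters are not in these windows. The letters were searched on both strands, and a match is not a shown binding site. Capitals mark the matched letters in the stretches below, from chr6:36644221-36644250 and chr14:54863543-54863572.
CDKN1A: gtcagGAACATGTCCCAACATGTTGagctc
CDKN3: tcccgcgcgtctTTCAAAggtcttctagga

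The 18 libraries held between 12704845 and 40231041 reads on genes (median 29608936), and the shallowest was N+PD30 replicate 1. Levels are given as reads per 1000000 reads on genes in the same library (CPM), and compared between genes only per kilobase of the exons of the MANE Select transcript. The N+PD24 values had been deposited after division by a size factor per library and were rescaled by their own total. Of 9 mesenchymal and bone marker genes, 7 averaged at least 1 CPM, with VIM, COL1A1 and SPARC leading, while SP7 and BGLAP were near 0. The summed level of 6 epithelial and blood markers was 0.885 to 2.95 CPM per library, none of them averaged 1 CPM, and CD3E had at most 3 reads in every library. CDH1 was called higher in Nutlin (1.21 CPM) than in DMSO (0.415 CPM). In bulk RNA, fewer cells with a transcript and less of it per cell cannot be told apart.

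**Figure D1:**
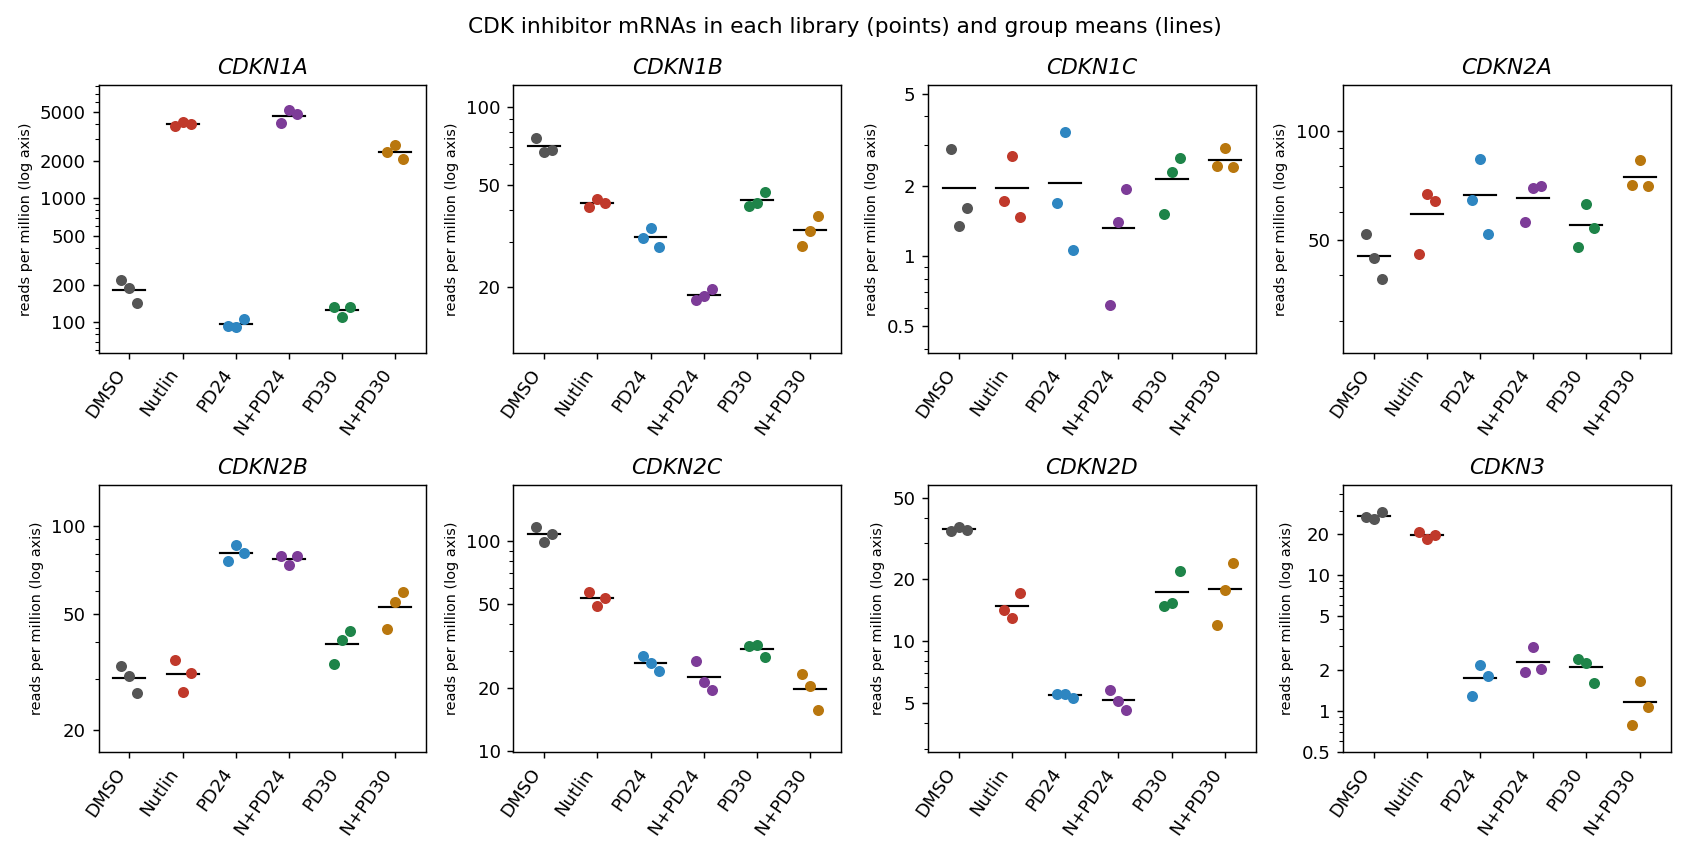
CPM (log axis) of the 8 genes in each library, with 3 points per group in replicate order and a line at the group mean. CDKN1A lies between 2081 and 5130 in the Nutlin, N+PD24 and N+PD30 libraries and between 91.1 and 219 elsewhere, CDKN3 drops below 3 in every library that received PD0332991, and CDKN2D is lowest in the PD24 and N+PD24 libraries.

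Among the CIP/KIP genes, CDKN1A had the widest range, with a 48.0-fold ratio between its highest and lowest group means. Its levels were 219, 190 and 143 CPM in the DMSO replicates (mean 184 ± 38.0, SD, n = 3) and 3859, 4144 and 3949 CPM in the Nutlin replicates (3984 ± 146, n = 3). They were 93.2, 91.1 and 106 CPM in PD24 (96.9 ± 8.27, n = 3) and 132, 111 and 134 CPM in PD30 (126 ± 12.8, n = 3). With Nutlin added, they were 4018, 5130 and 4796 CPM in N+PD24 (4648 ± 571, n = 3) and 2365, 2686 and 2081 CPM in N+PD30 (2377 ± 303, n = 3). In descending order the groups were N+PD24, Nutlin, N+PD30, DMSO, PD30 and PD24, and among neighbours in this order N+PD24 and Nutlin overlapped while the other pairs were separate.

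CDKN1B encodes p27, the inhibitor that holds CDK2 in check in resting cells and is destroyed through the SKP2 ubiquitin ligase as cells enter S phase. It had 76.0, 66.8 and 68.1 CPM in DMSO (70.3 ± 4.96, n = 3) and 40.9, 44 and 42.5 CPM in Nutlin (42.5 ± 1.53, n = 3). In PD24 it had 31.1, 33.9 and 28.6 CPM (31.2 ± 2.68, n = 3), and in PD30 41.3, 42.3 and 46.9 CPM (43.5 ± 2.98, n = 3). In N+PD24 it had 17.9, 18.5 and 19.8 CPM (18.7 ± 0.978, n = 3), and in N+PD30 29, 33.2 and 37.6 CPM (33.3 ± 4.29, n = 3). All DMSO libraries lay above all treated libraries and all N+PD24 libraries below all others, whereas PD30 overlapped with Nutlin and N+PD30 with PD24.

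CDKN1C encodes p57, an imprinted gene active mainly in development. Its reads were few, with group means from 1.32 ± 0.671 CPM in N+PD24 to 2.59 ± 0.285 CPM in N+PD30 (n = 3 each). Single libraries ranged from 0.615 CPM in N+PD24 replicate 1 to 3.41 CPM in PD24 replicate 2, and all neighbouring groups in the order of means overlapped.

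In the INK4 family, CDKN2A encodes p16 and, from another first exon, p14ARF, an inhibitor of MDM2, and reads per gene do not separate the products. It had 51.9, 44.8 and 39.2 CPM in DMSO (45.3 ± 6.39, n = 3), 45.8, 67.0 and 64.2 CPM in Nutlin (59.0 ± 11.5, n = 3) and 64.6, 83.9 and 52.2 CPM in PD24 (66.9 ± 16.0, n = 3). It had 47.9, 63.1 and 54.3 CPM in PD30 (55.1 ± 7.63, n = 3), 56.4, 69.7 and 70.8 CPM in N+PD24 (65.6 ± 8.06, n = 3) and 71.0, 83.2 and 70.5 CPM in N+PD30 (74.9 ± 7.17, n = 3). The order of means ran from N+PD30 through PD24, N+PD24, Nutlin and PD30 to DMSO, and each neighbouring pair overlapped.

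CDKN2B, the neighbour of CDKN2A on chromosome 9, encodes p15, an inhibitor known as a target of TGF-β. It had 33.1, 30.7 and 26.9 CPM in DMSO (30.2 ± 3.12, n = 3) and 34.7, 27 and 31.4 CPM in Nutlin (31.1 ± 3.84, n = 3). In PD24 it reached 75.7, 86.2 and 80.8 CPM (80.9 ± 5.24, n = 3) and in N+PD24 78.7, 73.1 and 79.1 CPM (76.9 ± 3.32, n = 3). It had 33.6, 40.9 and 43.7 CPM in PD30 (39.4 ± 5.19, n = 3) and 44.3, 54.7 and 59.3 CPM in N+PD30 (52.8 ± 7.67, n = 3). The groups from which PD0332991 had been withdrawn overlapped with each other and lay above all other libraries.

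CDKN2C encodes p18. It had 116, 99.0 and 107 CPM in DMSO (108 ± 8.5, n = 3) and 57.4, 49.0 and 53.4 CPM in Nutlin (53.3 ± 4.21, n = 3). Levels were 28.3, 26.2 and 24.1 CPM in PD24 (26.2 ± 2.14, n = 3) and 31.5, 32.1 and 28.0 CPM in PD30 (30.5 ± 2.19, n = 3). They were 26.7, 21.2 and 19.4 CPM in N+PD24 (22.4 ± 3.81, n = 3) and 23.3, 20.3 and 15.7 CPM in N+PD30 (19.8 ± 3.84, n = 3). DMSO lay above Nutlin and Nutlin above every library with PD0332991, while neighbouring groups among the latter overlapped.

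CDKN2D encodes p19, the INK4 member whose mRNA is known to vary through the cell cycle. It had 34.3, 36.1 and 34.7 CPM in DMSO (35 ± 0.954, n = 3) and 14.2, 13.1 and 17.2 CPM in Nutlin (14.8 ± 2.14, n = 3). It had 5.57, 5.56 and 5.29 CPM in PD24 (5.48 ± 0.157, n = 3) and 5.78, 5.14 and 4.62 CPM in N+PD24 (5.18 ± 0.580, n = 3). With PD0332991 kept on the cells it had 14.9, 15.3 and 22 CPM in PD30 (17.4 ± 3.99, n = 3) and 12, 17.8 and 24.0 CPM in N+PD30 (17.9 ± 5.96, n = 3). Nutlin, PD30 and N+PD30 overlapped, DMSO lay above them, and PD24 and N+PD24 lay below them and overlapped with each other.

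CDKN3 had 26.8, 25.8 and 29.1 CPM in DMSO (27.2 ± 1.69, n = 3) and 20.7, 18.5 and 19.8 CPM in Nutlin (19.7 ± 1.12, n = 3). In the PD24 libraries 1.29, 2.19 and 1.79 CPM remained (1.76 ± 0.452, n = 3) and in PD30 2.41, 2.25 and 1.59 CPM (2.08 ± 0.436, n = 3). N+PD24 had 1.93, 2.95 and 2.02 CPM (2.30 ± 0.566, n = 3) and N+PD30 0.787, 1.65 and 1.07 CPM (1.17 ± 0.438, n = 3). The 12 libraries with PD0332991 lay below the 6 without it, and N+PD30 replicate 1 had the fewest CDKN3 reads, 10.

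Per kilobase, the make-up of each family differed between groups. In DMSO, CDKN1A gave 73.9% ± 3.43 (SD, n = 3) of the CIP/KIP reads per kilobase and CDKN1B 25.2% ± 3.42. With Nutlin the CDKN1A share was 99.0% ± 0.0132 in Nutlin, 99.6% ± 0.0347 in N+PD24 and 98.6% ± 0.291 in N+PD30 (n = 3 each), against 76.4% ± 3.63 in PD24 and 75.5% ± 2.07 in PD30. The family sum was 117 ± 19.8 CPM per kilobase in DMSO, 59.9 ± 2.52 in PD24, 78.7 ± 6.68 in PD30 and 1901 ± 69.8 in Nutlin. Among the INK4 genes CDKN2C led in DMSO, with 57.9% ± 2.26 of the reads per kilobase against 24.7% ± 2.1 for CDKN2A. In Nutlin CDKN2A held 45.4% ± 6.78 and CDKN2C 40.6% ± 5.33, and their ranges overlapped. In all groups with PD0332991 CDKN2A led, from 51.3% ± 2.92 in PD30 to 62.3% ± 2.16 in N+PD30, and CDKN2C held between 16.3% ± 3.60 and 28.2% ± 3.19. CDKN2B held 4.20% ± 0.282 in DMSO, 17.8% ± 2.38 in PD24 and 17.6% ± 1.13 in N+PD24, and CDKN2D held 13.2% ± 1.18 in DMSO and 3.25% ± 0.409 in PD24. These shares are descriptions without a test, and they use the p16 transcript for the length of CDKN2A.

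CDKN2A and CDKN2B share a closely similar exon, so the split of reads between them is uncertain. The lncRNA CDKN2B-AS1 (mean 2.02 CPM) overlaps both on the opposite strand, and GPR19 (mean 1.19 CPM) overlaps CDKN1B on the opposite strand, in each case without a shared base in the MANE Select exons of the members. Libraries were made with the TruSeq RNA LT kit, and reads were counted with the setting for reverse-stranded reads.

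Nutlin raised CDKN1A and CDKN2A and lowered 4 other members relative to DMSO. A gene was called where the Benjamini-Hochberg adjusted p over all genes tested was below 0.05. Of the 8 members, 2 were called higher, where 26.6% of all 15766 genes tested were, and 4 were called lower, where 28% were. The median log2 fold change was -0.10 over the members and 0.03 over all genes. In edgeR's quasi-likelihood test CDKN1A rose 23.6-fold (log2 4.56 ± 0.16 SE, adjusted p = 1.65e-07), and CDKN2A rose by 0.51 ± 0.16 (adjusted p = 0.0192). CDKN2D fell by 1.12 ± 0.12 on the log2 scale (adjusted p = 3.92e-05), CDKN2C by 0.89 ± 0.10 (5.64e-05), CDKN1B by 0.60 ± 0.09 (0.000491) and CDKN3 by 0.34 ± 0.11 (0.0198). CDKN2B had 0.16 (95% confidence interval -0.11 to 0.44) and CDKN1C 0.14 (-0.60 to 0.87), and neither was called. The CDKN2A call was lost without DMSO replicate 2 or 3 or without Nutlin replicate 2 or 3 (adjusted p from edgeR 0.0567 to 0.0888) and with scaling by library totals (0.0651), and the CDKN3 call without DMSO replicate 3 (0.0636) or Nutlin replicate 2 (0.0655). Of all called genes 48.7% were higher with TMM scaling and 36.7% with library totals.

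**Figure D2:**
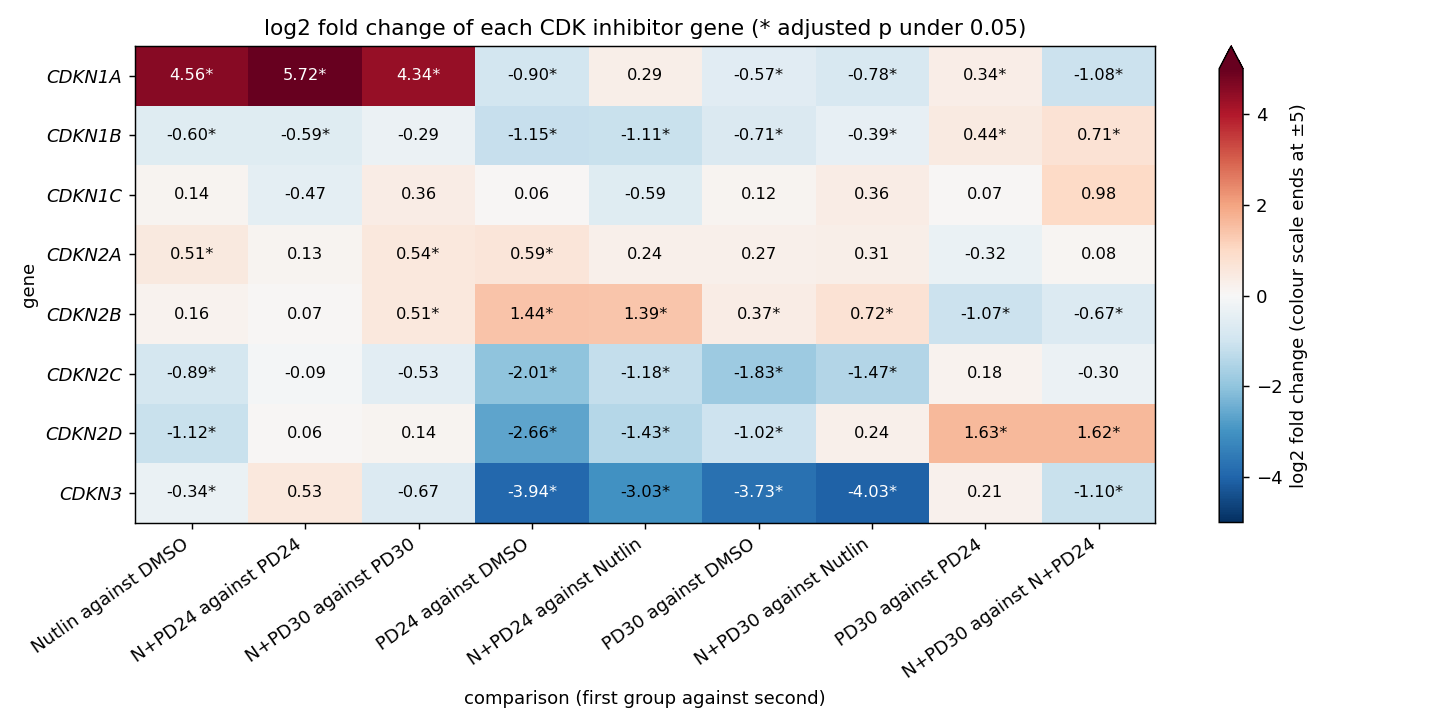
log2 fold change of the 8 genes (rows) in the 9 comparisons of 2 groups (columns), coloured from blue (lower in the first group) to red (higher), with an asterisk at an adjusted p under 0.05. CDKN1A is dark red in the 3 Nutlin columns, CDKN3 dark blue in the 4 columns in which PD0332991 is compared with its absence, and CDKN2D is red in both columns that set continued drug against withdrawn drug.

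PD0332991 alone lowered 5 of the 8 members under either schedule. In PD24 against DMSO, 5 members were called lower, where 20.8% of 15094 genes were, and 2 were called higher, where 17.5% were, with a median of -1.03 over the members and 0.02 over all genes. CDKN3 fell by 3.94 ± 0.19 on the log2 scale, to a level 15.3-fold lower (adjusted p = 7.47e-07, edgeR). CDKN2D fell by 2.66 ± 0.12 (adjusted p = 3.45e-07, edgeR), CDKN2C by 2.01 ± 0.11 (1.69e-06), CDKN1B by 1.15 ± 0.12 (8.99e-05) and CDKN1A by 0.90 ± 0.15 (0.00159). CDKN2B rose 2.72-fold (log2 1.44 ± 0.12, adjusted p = 2.14e-05, edgeR) and CDKN2A by 0.59 ± 0.19 (0.035), while CDKN1C had 0.06 (95% confidence interval -0.95 to 1.07). The CDKN2A call was lost without DMSO replicate 2 or 3 or PD24 replicate 1 or 2 (adjusted p from edgeR 0.0796 to 0.112).

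In PD30 against DMSO, the same 5 genes were called lower, where 25.4% of 15125 genes were, and 1 was called higher, where 22.9% were, with a median of -0.64 over the members and 0.00 over all genes. CDKN3 fell by 3.73 ± 0.16 on the log2 scale (13.2-fold, adjusted p = 1.28e-07, edgeR), CDKN2C by 1.83 ± 0.10 (4.63e-07) and CDKN2D by 1.02 ± 0.15 (0.000399). CDKN1B fell by 0.71 ± 0.09 (adjusted p = 0.000188, edgeR) and CDKN1A by 0.57 ± 0.15 (0.0103). CDKN2B rose by 0.37 ± 0.12 (adjusted p = 0.0352, edgeR), a call lost without DMSO replicate 2 or 3 or PD30 replicate 2 or 3 (0.0865 to 0.107). CDKN2A had 0.27 (95% confidence interval -0.04 to 0.57) and CDKN1C 0.12 (-0.59 to 0.83). Transcripts of dividing cells moved beside these values, with CDK1 at a log2 fold change of -6.72 in PD24 (adjusted p = 2.03e-08, edgeR) and CCNE2, a cyclin of CDK2, at -6.99 in PD30 (9.56e-09), and the part of the cells' position in the cycle in the members' values was not tested.

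Among Nutlin-treated cells, PD0332991 throughout the schedule lowered CDKN1A, CDKN1B, CDKN2C and CDKN3. In N+PD30 against Nutlin, 4 members were called lower, where 24.7% of 15721 genes were, and 1 was called higher, where 24.3% were, with medians of -0.08 over the members and 0.00 over all genes. CDKN1A fell by 0.78 ± 0.14 on the log2 scale (1.72-fold, adjusted p = 0.000998, edgeR). CDKN3 fell by 4.03 ± 0.23 (16.3-fold, adjusted p = 3.43e-07, edgeR), CDKN2C by 1.47 ± 0.17 (5.85e-05) and CDKN1B by 0.39 ± 0.13 (0.0234). CDKN2B rose by 0.72 ± 0.14 (adjusted p = 0.00164, edgeR). CDKN2D had 0.24 (95% confidence interval -0.22 to 0.70), CDKN2A 0.31 (-0.04 to 0.66) and CDKN1C 0.36 (-0.25 to 0.97). The CDKN1B call was lost without Nutlin replicate 2 or N+PD30 replicate 1 or 2 (adjusted p from edgeR 0.0602 to 0.097) and with library totals (0.0521).

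After withdrawal of PD0332991, CDKN1A in Nutlin-treated cells was not lower. In N+PD24 against Nutlin, tested with limma on log2(normalized value + 1) because N+PD24 values are normalized, 4 members were called lower, where 17.1% of 15927 genes were, and 1 was called higher, where 16.8% were. The medians were -0.85 over the members and 0.02 over all genes, and folds on this scale understate the change of low genes. CDKN1A had a log2 fold change of 0.29 ± 0.12 (95% confidence interval 0.02 to 0.56, adjusted p = 0.0937, limma), and CDKN2A 0.24 (-0.12 to 0.59, adjusted p = 0.277). Same-numbered replicates deviated together here, and a fit with replicate number as a block called both genes (adjusted p from limma 0.00972 for CDKN1A and 0.0317 for CDKN2A). CDKN3 fell by 3.03 ± 0.19 (8.16-fold, adjusted p = 2.54e-06, limma), CDKN2D by 1.43 ± 0.16 (0.000189), CDKN2C by 1.18 ± 0.15 (0.000387) and CDKN1B by 1.11 ± 0.11 (6.76e-05). CDKN2B rose 2.62-fold (1.39 ± 0.12, adjusted p = 2.63e-05, limma), and CDKN1C had -0.59 (-1.48 to 0.31). Of all called genes 49.7% were higher with TMM scaling and 40.2% with library totals.

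Nutlin was then compared with its absence in cells that had PD0332991. In N+PD30 against PD30, 3 members were called higher, where 8.84% of 15077 genes were, and 0 were called lower by edgeR, where 5.64% were. The medians were 0.25 over the members and -0.01 over all genes. CDKN1A rose 20.2-fold (log2 4.34 ± 0.15, adjusted p = 2.98e-06, edgeR), CDKN2A by 0.54 ± 0.13 (0.0332) and CDKN2B by 0.51 ± 0.14 (0.0416). CDKN2C had -0.53 ± 0.17 (adjusted p = 0.0657, edgeR, unadjusted 0.0118) and CDKN1B -0.29 ± 0.11 (0.112, unadjusted 0.029). Both were called lower in a fit blocked by replicate number (adjusted p from edgeR 0.017 and 0.0349). Deviations of same-numbered replicates correlated at 0.193, 0.319 and 0.693, but differently numbered replicates reached 0.466, so a pairing was not established here. CDKN2C was also called lower by DESeq2 (adjusted p = 0.027), and by edgeR with library totals (0.0285), with no filter on low counts (0.0462) and without N+PD30 replicate 1 (0.0401). CDKN3 had -0.67 (95% confidence interval -1.34 to 0.00), CDKN2D 0.14 (-0.40 to 0.68) and CDKN1C 0.36 (-0.20 to 0.92). The CDKN2A call was lost without PD30 replicate 1 or 3 or N+PD30 replicate 1 or 2 (adjusted p from edgeR 0.0503 to 0.133), the CDKN2B call without any 1 of PD30 replicates 1, 2 and 3 and N+PD30 replicates 2 and 3 (0.0576 to 0.148) and with library totals (0.0756). Of all called genes 61.1% were higher with TMM scaling and 43.8% with library totals. The called genes numbered 2183 with every library, 583, 1150 and 1064 without PD30 replicate 1, 2 and 3, 625 without N+PD30 replicate 2 and 3384 without N+PD30 replicate 3, so the shares of all genes given here move with single libraries.

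In N+PD24 against PD24, 1 member was called higher, where 16.5% of 15531 genes were, and 1 was called lower, where 19.8% were, with a median of 0.06 over the members and 0.04 over all genes. CDKN1A rose 52.8-fold (log2 5.72 ± 0.12, adjusted p = 3.54e-09, limma) and CDKN1B fell by 0.59 ± 0.13 (0.00548). The other members had log2 fold changes from -0.47 (CDKN1C) to 0.53 (CDKN3), and their intervals included 0. They were -0.45 to 0.27 for CDKN2C and -0.33 to 0.45 for CDKN2D (95% confidence intervals). Library totals moved the median of all genes to -0.10, and the share of called genes that were higher from 45.5% to 30.4%. The called genes numbered 5647, and 3759 without N+PD24 replicate 2.

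**Figure D3:**
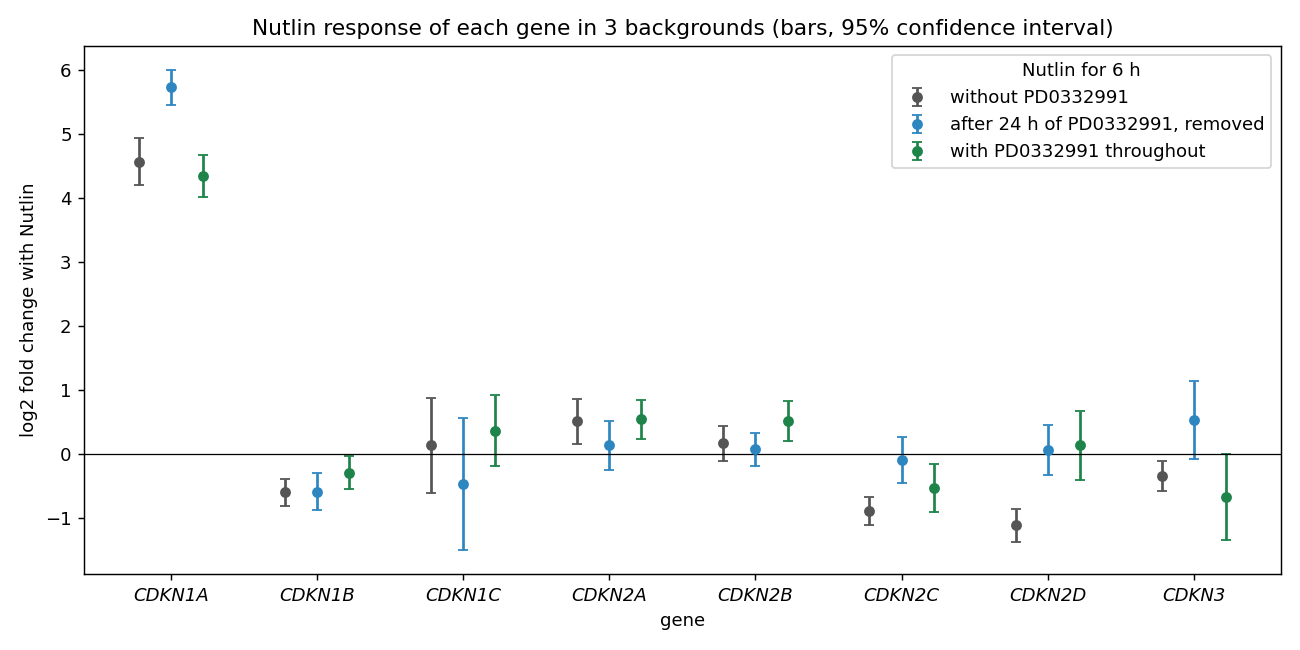
log2 fold change of the 8 genes with Nutlin in cells without PD0332991 (grey), after its withdrawal (blue) and in its continued presence (green), with 95% confidence intervals. CDKN1A lies at 4.56, 5.72 and 4.34 in this order, and CDKN2D at -1.12, 0.06 and 0.14.

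Whether the Nutlin response differed with PD0332991 was tested by interaction terms, in which a value above 0 means a response that was more positive with PD0332991. The comparisons above share control groups with these terms. For PD30, 1 member was called above 0, where 12.8% of 16113 genes were, and 0 below by edgeR, where 7.03% were. CDKN2D had an interaction of 1.3 ± 0.28 on the log2 scale (adjusted p = 0.00633, edgeR), while CDKN1A had -0.17 (95% confidence interval -0.62 to 0.28, adjusted p = 0.603). The interaction of CDKN1B was 0.36 ± 0.15 (adjusted p = 0.106, edgeR, unadjusted 0.0303), and no other member passed 0.05 unadjusted. CDKN2C had 0.40 (95% confidence interval -0.01 to 0.82) and was called above 0 without N+PD30 replicate 3 (adjusted p = 0.0235, edgeR).

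For PD24, 2 members were called above 0, where 0.466% of 16301 genes were, and 0 below by limma, where 0.252% were (0 also at an unadjusted p under 0.05). These were CDKN2D (1.19 ± 0.19, adjusted p = 0.0124, limma) and CDKN1A (1.15 ± 0.19, 0.0143), so the ratio of CDKN1A with Nutlin to CDKN1A without it was 2.22-fold larger after PD0332991 had been given and withdrawn than in DMSO. The level without Nutlin was called lower in PD24 than in DMSO (96.9 against 184 CPM), whereas the levels with Nutlin overlapped between N+PD24 and Nutlin and were called different with the replicate block alone (4648 against 3984 CPM). CDKN2C had 0.81 ± 0.19 (adjusted p = 0.083, limma, unadjusted 0.00105) and was called above 0 with replicate number as a block (0.0168), and CDKN3 had 0.88 ± 0.28 (0.203, unadjusted 0.00693). Both calls were lost without DMSO replicate 2 (adjusted p = 0.0598 for CDKN1A and 0.0582 for CDKN2D, limma), and that of CDKN1A also without N+PD24 replicate 2 (0.0544). Over all genes 117 were called, and 54, 34 and 58 without DMSO replicate 1, 2 and 3, 44 and 71 without Nutlin replicate 2 and 3, and 57 without N+PD24 replicate 2.

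Without Nutlin, continued and withdrawn PD0332991 differed most for CDKN2D and CDKN2B. In PD30 against PD24, 3 members were called higher, where 12.2% of 15171 genes were, and 1 was called lower, where 12.9% were, with a median of 0.20 over the members and -0.02 over all genes. CDKN2D was 3.10-fold higher in PD30 (log2 1.63 ± 0.18, adjusted p = 0.00054, edgeR), and CDKN2B was 2.11-fold lower (-1.07 ± 0.13, 0.00069). CDKN1B was higher by 0.44 ± 0.12 (adjusted p = 0.0251, edgeR) and CDKN1A by 0.34 ± 0.11 (0.0431). The CDKN1B call was lost without any 1 of PD24 replicates 1 and 3 and PD30 replicates 1, 2 and 3 (adjusted p from edgeR 0.0569 to 0.0807), and the CDKN1A call without PD24 replicate 1 or 2 or PD30 replicate 1 or 3 (0.104 to 0.171). These refits left out the replicate number. Deviations of same-numbered replicates correlated here at 0.316, 0.596 and 0.308, and those of differently numbered ones reached 0.124. With every library, a fit with replicate number as a block kept both calls. CDKN3 had 0.21 (95% confidence interval -0.39 to 0.81), CDKN2C 0.18 (-0.09 to 0.46), CDKN2A -0.32 (-0.74 to 0.10) and CDKN1C 0.07 (-0.84 to 0.98). The called genes numbered 3816, and 2178 and 2520 without PD30 replicate 1 and 3.

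In N+PD30 against N+PD24, 2 members were called higher, where 15.4% of 15566 genes were, and 3 were called lower, where 15.8% were, with a median of -0.11 over the members and -0.01 over all genes. CDKN1A was 2.12-fold lower in N+PD30 (log2 -1.08 ± 0.15, adjusted p = 0.000947, limma), CDKN2B was lower (-0.67 ± 0.13, 0.00419) and so was CDKN3 (-1.10 ± 0.31, 0.0247). CDKN2D was 3.08-fold higher (1.62 ± 0.23, adjusted p = 0.00111, limma) and CDKN1B was higher (0.71 ± 0.13, 0.00352). CDKN1C had 0.98 ± 0.37 with non-overlapping groups (adjusted p = 0.0714, limma) and was called without N+PD24 replicate 3 (0.0303). The CDKN3 call was lost without N+PD24 replicate 2 (adjusted p = 0.108, limma) or N+PD30 replicate 1 (0.0589). CDKN2C had -0.30 (95% confidence interval -0.75 to 0.15) and CDKN2A 0.08 (-0.22 to 0.38). Of all called genes 49.3% were higher with TMM scaling and 61.7% with library totals. The called genes numbered 4849, and 3126 without N+PD24 replicate 2.

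Since CDKN1A was higher in PD30 than in PD24 but lower in N+PD30 than in N+PD24, the difference between these differences was tested in a comparison added after the first results. The term was -1.37 ± 0.17 on the log2 scale for CDKN1A (95% confidence interval -1.75 to -1.0, adjusted p = 0.000856, limma), the 1 member called below 0, where 5.02% of 15933 genes were. By limma 0 members were called above 0, where 8.76% of genes were, and CDKN2B had 0.46 ± 0.18 (adjusted p = 0.108, limma, unadjusted 0.0244). CDKN3 had -1.28 ± 0.42 (adjusted p = 0.0592, limma), and CDKN2D 0.07 (-0.60 to 0.73). With replicate number as a block, CDKN2B was called above 0 (adjusted p = 0.0414, limma) and CDKN3 below 0 (0.0128), and CDKN3 was also called without N+PD30 replicate 2 (0.0306). The called genes numbered 2196, and 1448 without PD24 replicate 2, 1204 without PD30 replicate 1 and 1304 without N+PD24 replicate 2.

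The genes that work with the members were counted from lists chosen with earlier results of these data known, and each count stands beside the share of all genes called in that direction. Of 11 CDK and cyclin genes, 3 were called higher and 6 lower in PD24 against DMSO, where 17.5% and 20.8% of all genes were. In PD30 against DMSO 3 were called higher and 8 lower (22.9% and 25.4% of all genes). In Nutlin against DMSO 0 were called higher and 6 lower by edgeR (26.6% and 28% of all genes), and in N+PD30 against Nutlin 1 and 6 (24.3% and 24.7%). The largest rise with PD30 was that of CCND2, a D-type cyclin (log2 2.30, adjusted p = 5.02e-07, edgeR), and the largest fall that of CCNE2. CDK6 rose in PD24 (0.63, adjusted p = 0.00108, edgeR) and PD30 (0.29, 0.0127), and CCND1 rose in PD24 (0.77, 0.000146) and PD30 (0.51, 0.000593). CDK4, the amplified drug target, stood at 2919 ± 330 CPM in DMSO, 2358 ± 279 in PD24 and 2383 ± 123 in PD30 (n = 3 each), and was called in PD30 against DMSO (-0.31, adjusted p = 0.0231, edgeR) and not in PD24 against DMSO (-0.28, 0.0838).

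Of 8 retinoblastoma and E2F family genes, 0 were called higher and 5 lower in PD24 against DMSO (edgeR), where 17.5% and 20.8% of all genes were, and 1 and 4 in PD30 against DMSO, where 22.9% and 25.4% were. RB1, which the CDKs inactivate, fell in PD24 (log2 -1.52, adjusted p = 3.75e-05, edgeR) and PD30 (-1.18, 3.01e-06) and was not called with Nutlin (0.16, 0.222). The largest fall in PD30 was that of E2F1 (-4.74, adjusted p = 5.66e-07, edgeR), and the 1 rise was that of E2F5 (0.64, 0.00378). Of 8 ubiquitin ligase genes that act on p27 and p21, 0 were called higher and 5 lower in PD30 against DMSO (edgeR; 22.9% and 25.4% of all genes). In Nutlin against DMSO 3 were called higher and 3 lower, near the shares of all genes (26.6% and 28%). DTL, which directs p21 to destruction during DNA replication, had the largest fall with PD30 (-6.42, adjusted p = 5.02e-09, edgeR). Of the groups of genes above with 0 called higher, 1 gene passed an unadjusted p under 0.05 in that direction, of the retinoblastoma and E2F family in PD24, and 0 of the others did (edgeR).

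Of 12 transcription factors acting on the CIP/KIP genes, 10 were tested in PD30 against DMSO, of which 1 was called higher and 4 lower, where 22.9% and 25.4% of all genes were. TP73, which E2F activates, had the largest fall with PD30 (-5.81, adjusted p = 1.27e-07, edgeR). Of 10 polycomb, ETS and ID factors that act on the INK4 locus, 2 were called higher and 6 lower in PD30 against DMSO, where 22.9% and 25.4% of all genes were, and 1 and 5 in PD30 against PD24, where 12.2% and 12.9% were. EZH2, the methyltransferase of polycomb complex 2, had the largest fall with PD30 against DMSO (-4.21, adjusted p = 1.14e-08, edgeR). ID1, an inhibitor of the ETS factors that raise CDKN2A, had the largest fall in PD30 against PD24 (-2.02, adjusted p = 0.000623, edgeR), and CBX7, a polycomb subunit, the largest rise (1.37, 0.000611).

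Of 10 further p53 response genes, 10 were called higher with Nutlin in all 3 settings, against DMSO, PD30 and PD24, where 26.6%, 8.84% and 16.5% of all genes were, and 0 were called lower. MDM2 averaged 2589 ± 79.7 CPM in DMSO, 22914 ± 4589 in Nutlin, 11183 ± 2520 in N+PD24 and 7293 ± 926 in N+PD30 (n = 3 each). In N+PD30 against Nutlin 2 of the 10 were called higher and 3 lower, near the shares of all genes (24.3% and 24.7%), and MDM2 had the largest fall (-1.70, adjusted p = 2.53e-05, edgeR) and BTG2 the largest rise (1.09, 0.00024). In N+PD24 against Nutlin MDM2 was lower too (-0.97, adjusted p = 0.00608, limma), where CDKN1A had 0.29.

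Likeness of pattern was described by Pearson's r of log2(CPM + 0.5) over the 18 libraries, among 13538 genes with a mean of at least 1 CPM. The points share libraries, scaling and treatment groups, and r is given without a test. CDKN1A was most like CDH10 (r = 0.992), FAS (0.990) and APOBEC3C (0.989), and CDKN3 most like CEP55 (0.993), ASPM (0.993) and FANCD2 (0.992). CDKN2C was most like NXPH2 (0.983), KIF18A (0.977) and ARHGAP11A (0.977), and CDKN1B most like SETD8 (0.970), SUGP2 (0.966) and CRY1 (0.966). CDKN2D was most like MKKS (0.970), MAP3K3 (0.961) and SPATS2 (0.945), CDKN2A most like ZNHIT1 (0.966), ATP6V0C (0.960) and C19orf63 (0.958), and CDKN2B most like PMEPA1 (0.948), AMZ1 (0.939) and GALNT6 (0.919). The scarce CDKN1C was most like TNRC18 (0.855), RAI1 (0.841) and CC2D1A (0.840). Among the members themselves the highest r was that of CDKN2C with CDKN3 (0.922), followed by CDKN1B with CDKN2D (0.877), and the lowest was that of CDKN2B with CDKN2D (-0.809), followed by CDKN1B with CDKN2B (-0.797).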

How the data were processed

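RNA of 18 SJSA-1 libraries in 6 groups was sequenced by the study as single reads of 50 bases. Per the labels and methods, reads were mapped to hg19 with TopHat and Bowtie2 and counted per gene symbol with HTSeq 0.6.0 (setting for reverse-stranded reads). The authors deposited read counts for 5 groups. The N+PD24 columns were deposited as normalized signal, with a size factor for each library divided out, and 100% of these values became whole reads (within 0.1) when multiplied back. Deposited base-mean tables and the authors' table of Nutlin against DMSO (fold changes, p-values) were not used. Columns without a sample numbered 0, and 28 date-like gene names were kept. The labels and methods name different sequencers.

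Groups and replicates followed the labels. Count groups were tested with edgeR 4.0.16 (R 4.3.3; TMM, filterByExpr, quasi-likelihood test), and comparisons with N+PD24 with limma 3.58.1 (intensity trend) on log2 of the TMM-scaled normalized value + 1. Calls were Benjamini-Hochberg adjusted p under 0.05 over all genes tested. 11 comparisons were planned and 1 was added. Scripts were tested on simulated data. The members and gene lists were chosen with earlier results of these data known. Named list genes are the drug targets and their partners MDM2, CDK4, CDK6, CCND1 and RB1, and otherwise at most the largest called rise and fall of a list with non-overlapping groups, and the 3 most alike genes of each member are named; 1 further gene of this rule is not reported here. Alternatives were library totals, no filter, DESeq2 1.42.0, a replicate block, a fold limit of 1 (log2), other pseudocounts (0.25, 8), no trend, edgeR on recovered reads, CPM after TMM and leaving out each library. Deviations of same-numbered replicates correlated (each of 3 correlations over 0.1) in PD24 against DMSO (lowest 0.108) and N+PD24 against Nutlin (0.465). The same held for N+PD30 against PD30 (0.193), N+PD24 against PD24 (0.207) and PD30 against PD24 (0.308). The highest correlation of differently numbered replicates was 0.539, 0.097, 0.466, 0.181 and 0.124, in this order. In PD24 against DMSO and N+PD30 against PD30 it exceeded the lowest same-numbered one, so a pairing was not established there. Gene positions, transcripts and start sites are from GENCODE on GRCh37.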

Additional observations from a re-analysis of the deposited data

Results flagged for a closer look

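Differences in response between backgrounds were tested by interaction terms, and 4 of them passed for the members. The Nutlin response of CDKN2D differed between PD30 and DMSO backgrounds, with a term of 1.3 on the log2 scale (adjusted p = 0.00633, edgeR), and over its alternatives the adjusted p ranged from 0.000336 to 0.0196. It also differed between PD24 and DMSO backgrounds, with a term of 1.19 (adjusted p = 0.0124, limma, range 0.00859 to 0.0582). CDKN2D had 12 to 24.0 CPM in N+PD30, against 14.9 to 22 CPM in PD30, and 4.62 to 5.78 CPM in N+PD24, against 5.29 to 5.57 CPM in PD24.

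The ratio of CDKN1A with Nutlin to CDKN1A without it was larger in the PD24 than in the DMSO background, where its level without Nutlin was higher, with a term of 1.15 (adjusted p = 0.0143, limma, range over its alternatives 0.00324 to 0.0598). The effect of continued against withdrawn PD0332991 on CDKN1A had opposite signs without and with Nutlin, with a term of -1.37 (adjusted p = 0.000856, limma). Without Nutlin the difference was small (0.34, adjusted p = 0.0431, edgeR). That call was lost without PD24 replicate 1 or 2 or PD30 replicate 1 or 3. All 3 PD30 libraries lay above all 3 PD24 libraries, and all 3 N+PD30 libraries lay below all 3 N+PD24 libraries. The comparison that gave the term of -1.37 was chosen after seeing the data. These terms share groups with each other and with the comparisons of the report.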

How the results depend on the processing

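Over 720 refits of a member's fold change that left out 1 library, 676 kept their side of the threshold, 40 lost the call and 4 gained it. Over 504 refits with other settings, 491 kept their side, 3 lost the call and 10 gained it. In 0 of these refits a called change reversed. Changes that were not called could change sign, as for CDKN1C in Nutlin against DMSO (-0.18 to 0.53 with 1 library left out). With a fold limit of 1 (log2) added, which is stricter, the members called in either direction numbered 2 in Nutlin against DMSO (20.8% of all genes), 3 in PD30 against DMSO (15.2%), 2 in N+PD30 against Nutlin (22.3%), 1 in N+PD30 against PD30 (3.68%), 1 in N+PD24 against PD24 (16.1%), 2 in PD30 against PD24 (7.49%) and 3 in N+PD30 against N+PD24 (13.2%). With a replicate block, 5 members were called in N+PD30 against PD30 in place of 3, where all called genes went from 2183 to 4375 of 15077. In the PD30 against PD24 by Nutlin interaction 3 were called in place of 1, where all called genes went from 2196 to 3925 of 15933. The block also added the call of CDKN2C to the Nutlin by PD24 interaction (adjusted p = 0.0168, limma), where all called genes went from 117 to 287 of 16301. Beside these and the calls given in the report, the block changed no other call. Leaving out 1 library gave 1 to 3 called members in N+PD30 against PD30, where 583 of 15372 to 3384 of 15317 genes were called. It gave 2 to 3 in PD30 against PD24 (2178 of 15497 to 4117 of 15285 genes). The Nutlin by PD30 interaction had 1 to 2 (2 without N+PD30 replicate 3), where 2264 of 16408 to 3281 of 16399 genes were called. The Nutlin by PD24 interaction had 0 to 2 (0 without DMSO replicate 2), where 34 of 16630 to 97 of 16553 genes were called. The PD30 against PD24 by Nutlin interaction had 1 to 2 (2 without N+PD30 replicate 2), where 1204 of 16303 to 2375 of 16288 genes were called. Beyond the construction of each setting, the cause was not tested. Of 48 group means, 2 moved by more than 1 SD with TMM, and of 40 neighbouring pairs of groups 15 were separate by total and 16 with TMM. Such pairs were counted for the members only and not over all genes, so these counts describe only the step from totals to TMM.

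Over all genes, the block changed the called genes from 5399 to 8363 in N+PD24 against Nutlin, from 2183 to 4375 in N+PD30 against PD30, from 3816 to 6107 in PD30 against PD24, from 2196 to 3925 in the PD30 against PD24 by Nutlin interaction and from 117 to 287 in the Nutlin by PD24 interaction, where no filter gave 74 and a pseudocount of 8 gave 202. CDKN1C, at 0.615 to 3.41 CPM per library, had 95% confidence intervals of its log2 fold change as wide as -1.50 to 0.56 (N+PD24 against PD24).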
